A study of Mus musculus with 6 samples.

Results

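The actin cytoskeleton and contractile genes described here are 46 named genes: the transcription factor SRF and its MRTF coactivators, the actins, and the proteins that bind, crosslink, regulate or pull on actin filaments. Membership was by gene name, and each gene was read from the probeset with the highest mean among those naming only that gene. A probeset is a group of short probes that together report a transcript. Of the 46 genes, 45 were measured in this way, among 19938 genes of the array with a probeset of their own. Actg1, cytoplasmic gamma-actin, was not, because its 4 probesets also name Actb. The gene set therefore has no value for Actg1.

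Primary osteoblasts were grown out from long bones of 3 wild-type male C57BL6/J mice aged 8 to 12 weeks, expanded to passage 2 to 3 and differentiated osteogenically for 14 days. For stimulation, 1 culture of each mouse received recombinant murine C5a at 100 ng/ml in proliferation medium for 4 h. The unstimulated culture of the same mouse spent 4 h in that medium without C5a. This gave 3 C5a arrays and 3 unstimulated arrays, and no other treatment or genotype. The sample titles carry the numbers 2, 4 and 5 in both groups, and this number was read as the mouse. Outgrowth cultures are mixtures, and the macrophage and osteoclast markers described further on differed between the mice. The values are log2 intensities after the authors' robust multiarray average (RMA), with medians between 5.89 and 5.93 on the 6 arrays. All differences are C5a minus unstimulated on this log2 scale, tested with limma, with p-values adjusted over all 35556 probesets. The fit did not pair the cultures, except where the mouse is named as a block. Its standard errors, intervals and p-values therefore count the spread between mice as error. For Acta1 the standard error was 0.62 in this fit and 0.14 with the block. The number of arrays limits the precision.

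C5a is a fragment of complement component C5 that acts through a G-protein-coupled receptor, C5aR1, and is best known for attracting phagocytes, whose migration depends on actin remodelling. In osteoblasts, actin stress fibres and nonmuscle myosin carry tension from the matrix, and the pool of unpolymerised actin holds the MRTF coactivators in the cytoplasm. When that pool shrinks, MRTF enters the nucleus and binds SRF on a short DNA element, the CArG box, which lies near many actin, calponin, transgelin and LIM-protein genes. SRF also serves the ternary complex factors (TCFs), which drive immediate early genes through the same element. The comparison asks how the transcripts of this filament system differed after C5a.

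Most genes of the set had higher values after C5a, but no single gene passed the adjusted threshold. At an adjusted p under 0.05, limma called 0 of 45 genes, where 0.0251% of all genes passed. The smallest adjusted p among the 45 was 0.141, for Csrp2. With the mouse as a block 0 genes passed again, where 0.0201% of all genes passed, and the smallest adjusted p was 0.0870, for Flnc, whose adjusted p lay between 0.0770 and 0.794 over all alternatives. The methods used an unadjusted p under 0.05 together with a fold change of 1.5, and these thresholds are called the thresholds of the methods below. By them 12 of 45 genes (26.7%) were higher with C5a, where 1.91% of all genes were, and 0 were lower, where 1.62% of all genes were. With the mouse as a block these counts were 13 and 0, where 2.22% and 2.21% of all genes passed. Without the fold threshold, 15 genes were higher and 1 was lower at an unadjusted p under 0.05, where 6.2% and 7.81% of all genes were. With the mouse as a block, 21 were higher and 3, Filip1l, Mylk and Synpo, were lower at that p, where 8.26% and 11.9% of all genes were. The count of 12 fell to 5 when the unstimulated array of mouse 2, or both arrays of mouse 2, were left out. These 5 were Flnc, Mical2, Pdlim5, Csrp1 and Csrp2. With the methods' t-test the count was 7, without Cnn1, Tagln, Myh9, Des and Fhl3.

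Of the 45 genes, 38 had a log2 fold change above 0, where 47.9% of all genes did. The median log2 fold change of the 45 genes was 0.29, against -0.0064 over all genes, of which the middle 90% lay between -0.42 and 0.39. Within mice 2, 4 and 5 the median change of the 45 genes was 0.48, 0.19 and 0.22. Over all genes it was 0.0015, -0.0068 and -0.016. In these mice 41, 33 and 32 of the 45 genes were higher with C5a, against 10028, 9325 and 9023 of all 19938 genes. In all 3 mice 27 genes were higher and 3 were lower, where 19% and 22.9% of all genes were. All C5a arrays lay above all unstimulated arrays for 15 genes and below them for 1, where 8.67% and 9.95% of all genes separated in this way. The plot of changes within each mouse shows that the larger positive differences lay among the crosslinkers and LIM-domain proteins, whereas the log2 fold changes of the actins, tropomyosins and thin filament regulators, as means over the mice, lay between 0.01 and 0.46.

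**Figure D1:**
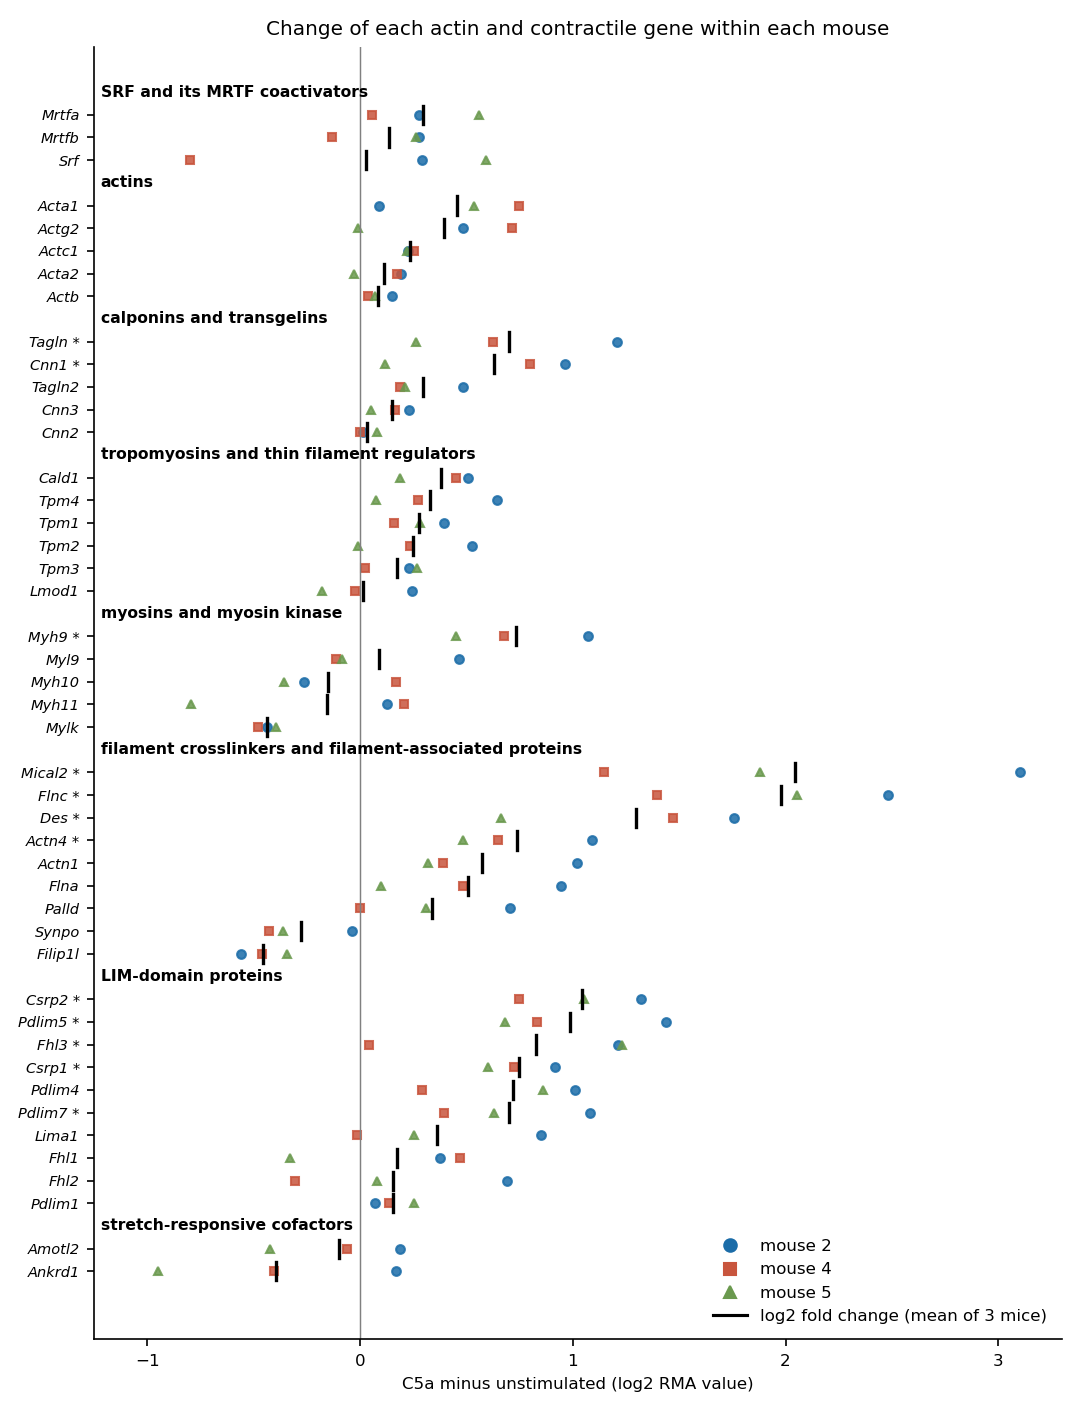
C5a minus unstimulated (log2 RMA value, x axis) for 45 actin and contractile genes (y axis, grouped by role), with 1 symbol per mouse and a bar at the log2 fold change. Asterisks mark the 12 genes past the thresholds of the methods, all of which lay above 0 in all 3 mice.

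Among 9 filament crosslinkers and filament-associated proteins, 4 were higher at the thresholds of the methods and 0 were lower, where 1.91% and 1.62% of all genes were. Their median log2 fold change was 0.58. Mical2, an enzyme that oxidises actin and thereby breaks down filaments, had 10.81, 10.05 and 10.78 with C5a in mice 2, 4 and 5, against 7.71, 8.91 and 8.91 unstimulated. Its groups lay more than 1 log2 unit apart, and mouse 2 had both the highest C5a value and the lowest unstimulated value. This was the largest log2 fold change of the 45 genes, 2.04 (standard error, SE, 0.39, adjusted p = 0.169 from limma). Flnc, which encodes the muscle-type filamin that crosslinks actin filaments, had 10.85, 10.23 and 11.44 with C5a, against 8.37, 8.83 and 9.39 unstimulated. Here too every C5a array lay above every unstimulated one, with a log2 fold change of 1.98 (SE 0.38, adjusted p = 0.171 from limma). Des, the intermediate filament protein of muscle, had 7.05, 8.34 and 7.26 with C5a, against 5.29, 6.87 and 6.60 unstimulated. The Des groups separated narrowly, since unstimulated cells of mouse 4 came close to stimulated cells of mouse 2. Its log2 fold change of 1.30 (SE 0.52, adjusted p = 0.442 from limma) was smaller than the range of 1.43 between the mean levels of the mice. In the unblocked fit Des no longer passed without the C5a array of mouse 4 or 5 (log2 fold changes 0.90 and 1.44) or the unstimulated array of mouse 2 or 5 (0.82 and 1.47). In the limma fit with the mouse as a block Des had unadjusted p = 0.00247. There it also passed without mouse 2, 4 or 5 (1.07, 1.21 and 1.62).

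Actn4, a nonmuscle alpha-actinin that bundles stress fibre actin, had 12.74, 12.75 and 12.83 with C5a, against 11.65, 12.11 and 12.35 unstimulated. The C5a values were nearly the same in the 3 mice (12.78 ± 0.05, SD, n = 3), while the unstimulated values spread more widely (12.04 ± 0.35, SD, n = 3). The log2 fold change of Actn4 was 0.74 (SE 0.18, adjusted p = 0.220 from limma). Its relative Actn1 had a log2 fold change of 0.58, which is 1.49-fold and so just below the fold threshold, with unadjusted p = 0.0202 and no overlap between the groups. Flna, the widely expressed filamin, had 0.51 (unadjusted p = 0.0527) and was higher in all 3 mice. Palld, a scaffold that binds alpha-actinin in stress fibres, had 0.34 and was level in mouse 4. Synpo, an actin-bundling protein of podocytes and dendritic spines, had -0.28 and was lower in all 3 mice, with unadjusted p = 0.448, and 0.0455 with the mouse as a block, under the fold threshold in both fits. Actn4 lost its call without the unstimulated array of mouse 2 (0.55). Actn1 passed without the C5a array of mouse 4 (0.66) or the unstimulated array of mouse 4 or 5 (0.59 and 0.74), and Flna without the C5a array of mouse 4 (0.63) or the unstimulated array of mouse 5 (0.72).

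Filip1l, a filamin A-interacting protein, ran the other way. It had 8.04, 8.20 and 8.17 with C5a, against 8.60, 8.66 and 8.51 unstimulated. It was the only one of the 45 genes whose C5a arrays all lay below the unstimulated arrays. Its log2 fold change was -0.46 (95% interval -0.64 to -0.27, adjusted p = 0.151 from limma), which is under the fold threshold.

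LIM domains are zinc-binding modules, and the LIM proteins of this set sit on actin filaments through alpha-actinin or shuttle between filaments and nucleus. All 10 of them had a log2 fold change above 0, where 47.9% of all genes did, with a median of 0.71. At the thresholds of the methods 5 were higher, where 1.91% of all genes were. Csrp2, a LIM-only protein of smooth muscle and fibroblast-like cells, had 10.48, 10.05 and 10.08 with C5a, against 9.16, 9.30 and 9.03 unstimulated. These groups were tight and far apart (10.20 ± 0.24 and 9.16 ± 0.13, SD, n = 3 each). The log2 fold change was 1.04 (SE 0.14, adjusted p = 0.141 from limma). Csrp1, its close relative, had 12.20, 12.03 and 12.31 with C5a, against 11.28, 11.31 and 11.70 unstimulated. Again no values overlapped, and the log2 fold change was 0.75 (SE 0.14, adjusted p = 0.167 from limma).

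Pdlim5 and Pdlim7 encode Enigma-family proteins, whose PDZ domain binds alpha-actinin or tropomyosin on stress fibres. Pdlim5 had 12.18, 11.80 and 12.16 with C5a, against 10.74, 10.97 and 11.48 unstimulated, with a log2 fold change of 0.98 (SE 0.21, adjusted p = 0.183 from limma). Pdlim7 had 10.16, 9.96 and 10.07 with C5a, against 9.08, 9.56 and 9.44 unstimulated, with a log2 fold change of 0.70 (SE 0.14, adjusted p = 0.175 from limma). In both genes the groups did not overlap and the unstimulated array of mouse 2 was the lowest. Fhl3, a four-and-a-half-LIM protein, had 9.81, 9.17 and 9.35 with C5a, against 8.60, 9.13 and 8.12 unstimulated. The 2 cultures of mouse 4 differed by 0.04 and those of the other mice by 1.21 and 1.23, so the log2 fold change of 0.83 (SE 0.29, adjusted p = 0.371 from limma) came from mice 2 and 5. Pdlim4 had 9.33, 8.51 and 8.39 with C5a, against 8.32, 8.22 and 7.53 unstimulated. It was higher in all 3 mice, with a log2 fold change of 0.72, and passed the thresholds of the methods only with the mouse as a block (unadjusted p = 0.00660, against 0.0642 without the block). Lima1, which stabilises actin bundles, had 0.36, and Fhl1, Fhl2 and Pdlim1 had 0.17, 0.15 and 0.15, with intervals that included 0. Fhl3 lost its call without the C5a array of mouse 2 or 5 (0.65 and 0.87) or the unstimulated array of mouse 2 or 5 (0.82 and 0.58). Pdlim7 lost its own without the unstimulated array of mouse 2 (0.56).

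The calponins and transgelins share an actin-binding calponin repeat, and Cnn1 and Tagln are classical markers of smooth muscle and of myofibroblasts. All 5 genes were higher in all 3 mice, where 19% of all genes were. At the thresholds of the methods 2 of 5 were higher, where 1.91% of all genes were. Tagln had 11.20, 11.46 and 11.21 with C5a, against 9.99, 10.84 and 10.95 unstimulated. The unstimulated culture of mouse 2 stood well below the others, and the log2 fold change was 0.70 (SE 0.26, adjusted p = 0.412 from limma). Cnn1 had 12.05, 11.58 and 11.22 with C5a, against 11.08, 10.78 and 11.10 unstimulated. Mouse 5 contributed a difference of 0.12 to the log2 fold change of 0.63 (SE 0.22, adjusted p = 0.373 from limma). The forms found in most cells had smaller values, 0.29 for Tagln2, 0.15 for Cnn3 and 0.03 for Cnn2. In the unblocked fit Cnn1 lost its call without either array of mouse 2 or of mouse 4 (0.41 to 0.68). Tagln lost its call there without any 1 of the C5a arrays (0.61 to 0.74) and without the unstimulated array of mouse 2 (0.40). When 1 mouse was left out of the fit with the block, Cnn1 lost its call without mouse 2 or 4 (0.46 and 0.54). Tagln lost its call there only without mouse 2 (0.44).

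**Figure D2:**
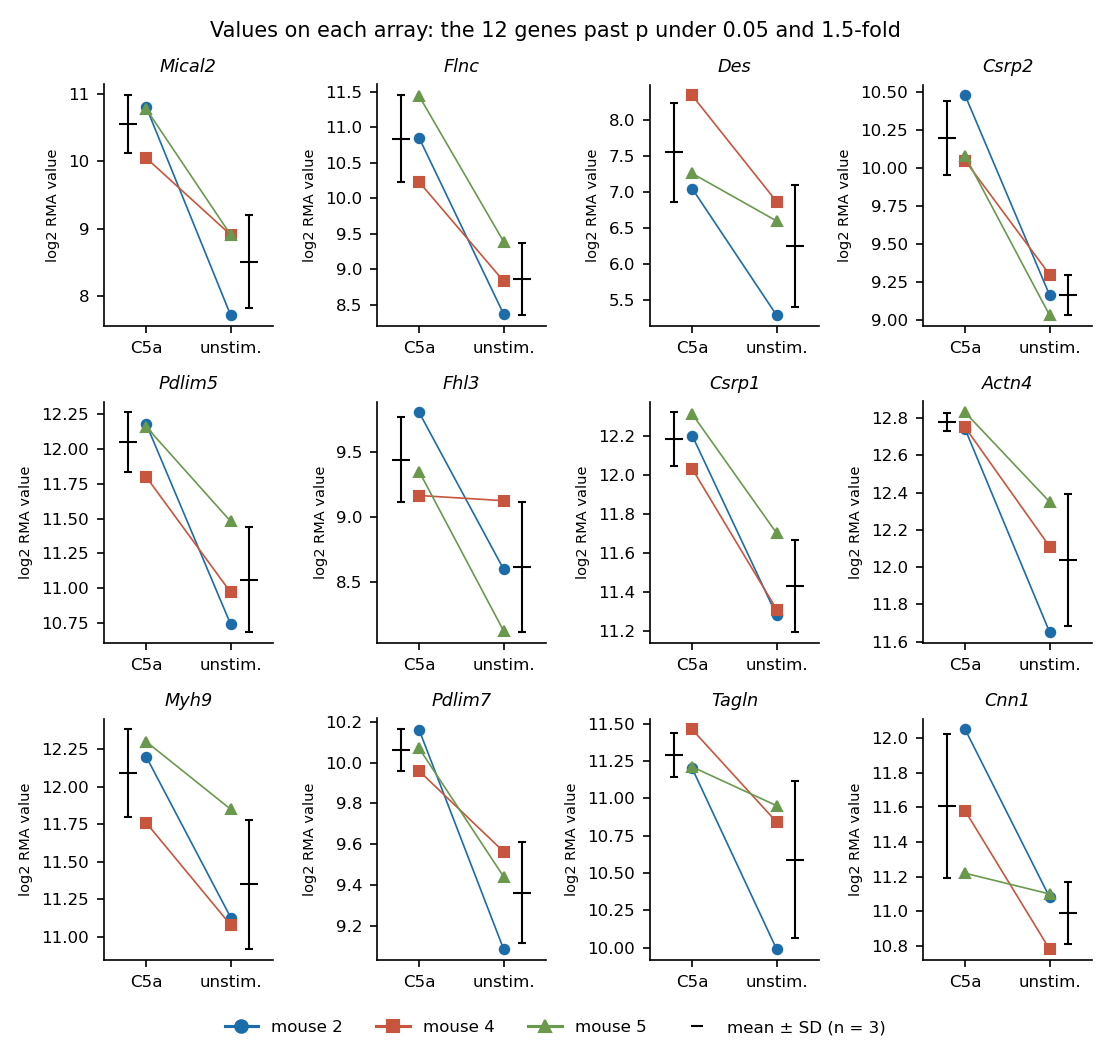
Log2 RMA values (y axis, own scale for each gene) of the 12 genes past the thresholds of the methods, with C5a on the left and unstimulated on the right, a line joining the 2 cultures of a mouse, and mean ± SD (n = 3) beside the points. Every line runs higher on the C5a side, and the groups overlap only for Myh9.

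Of 5 genes for myosins and the myosin kinase, 1 passed the thresholds of the methods. Myh9, the heavy chain of nonmuscle myosin IIA, had 12.20, 11.76 and 12.30 with C5a, against 11.13, 11.08 and 11.85 unstimulated. It was higher in all 3 mice, although the groups overlapped, since stimulated cells of mouse 4 lay below unstimulated cells of mouse 5. The log2 fold change was 0.73 (SE 0.25, adjusted p = 0.363 from limma). The other nonmuscle heavy chain, Myh10, had -0.15, the smooth muscle heavy chain Myh11 had -0.16 and the regulatory light chain Myl9 had 0.09, all with intervals that included 0. Mylk, the kinase that phosphorylates the regulatory light chain and so switches contraction on, had 8.84, 8.51 and 8.21 with C5a, against 9.27, 8.99 and 8.61 unstimulated. It was lower in all 3 mice by similar amounts, -0.44, -0.48 and -0.40, within levels that differed between mice. Its log2 fold change of -0.44 missed the threshold without the block (unadjusted p = 0.0944) and had unadjusted p = 0.00156 with it, still under the fold threshold. When 1 mouse was left out of the fit with the block, Myh9 lost its call only without mouse 2 (0.56). In the unblocked fit Myh9 lost its call without the C5a array of mouse 2 or 5 (0.67 and 0.63) or the unstimulated array of mouse 2 or 4 (0.62 and 0.60). Mylk gained one without the C5a array of mouse 2 (-0.60) or the unstimulated array of mouse 5 (-0.61).

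The actins themselves gave no call over the 3 mice, with or without the block. The 5 measured genes had log2 fold changes between 0.09 and 0.46. Actb, the cytoplasmic beta-actin, had 14.22, 14.10 and 14.18 with C5a, against 14.07, 14.07 and 14.11 unstimulated, and the 95% interval of its log2 fold change ran from -0.065 to 0.24. Acta2, the smooth muscle actin of myofibroblast stress fibres, had 13.71, 13.61 and 13.46 with C5a, against 13.52, 13.44 and 13.49 unstimulated, with an interval of -0.089 to 0.31. For both, the interval of these array values lies below a change of 1.5-fold, which is 0.585 on the log2 scale. Both genes lay near the highest values of any probeset on the arrays, 14.36 to 14.4. Whether differences are compressed at such intensities was not tested, so the intervals hold for the array signal. Actc1, the cardiac form, had the smallest p of the actins, with 7.77, 7.86 and 7.89 with C5a, against 7.54, 7.60 and 7.67 unstimulated. These values separated without overlap at a small log2 fold change of 0.23 (95% interval 0.064 to 0.40, adjusted p = 0.287 from limma). Acta1 and Actg2, the skeletal and enteric forms, had 0.46 and 0.40 with intervals several times wider, because their levels differed between mice by more than 1 log2 unit. In the limma fit with the mouse as a block, Acta1 had unadjusted p = 0.0248, against 0.488 without it. Actg2 had 0.0514, against 0.642, and both genes stayed under the fold threshold. With the mouse as a block, Acta1 gained a call without mouse 2 (0.64) and Actg2 without mouse 5 (0.60).

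Tropomyosins lie along the actin filament and gate its access to myosin, and 0 of 6 genes for tropomyosins and thin filament regulators passed the thresholds of the methods. Their log2 fold changes were all above 0, from 0.01 to 0.38. Tpm4 had the smallest p, with 12.38, 12.31 and 12.13 with C5a, against 11.73, 12.03 and 12.06 unstimulated. Its groups did not overlap, and the log2 fold change was 0.33 (SE 0.12, adjusted p = 0.378 from limma). Cald1, caldesmon, which blocks the myosin ATPase, had 0.38, and Tpm1, Tpm2 and Tpm3 had 0.28, 0.25 and 0.17. For Cald1 limma gave unadjusted p = 0.105, and 0.0098 with the mouse as a block, under the fold threshold in both fits. Lmod1, leiomodin, which seeds filaments in smooth muscle, had 0.01.

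The transcripts of SRF and its coactivators gave no call. Srf had 9.71, 8.55 and 9.59 with C5a, against 9.41, 9.34 and 8.998 unstimulated. The mice disagreed, since Srf was higher with C5a in mice 2 and 5 and lower by 0.80 in mouse 4. Its log2 fold change was 0.03 with an interval wide enough to include a change of 1.5-fold either way (-0.76 to 0.82, adjusted p = 0.994 from limma). Mrtfa had 9.25, 8.995 and 9.58 with C5a, against 8.97, 8.94 and 9.03 unstimulated, and was higher in all 3 mice (log2 fold change 0.30, adjusted p = 0.582 from limma). Mrtfb had 8.45, 8.42 and 9.07 with C5a, against 8.17, 8.56 and 8.81 unstimulated, with overlapping groups (log2 fold change 0.14, adjusted p = 0.937 from limma). Both stretch-responsive cofactors also failed the test. Ankrd1, a nuclear cofactor of strained muscle, had 7.77, 9.05 and 9.77 with C5a, against 7.60, 9.46 and 10.72 unstimulated, a log2 fold change of -0.40 (adjusted p = 0.955 from limma). Its values followed the mouse far more closely than the treatment. Amotl2, an angiomotin that binds the coactivator YAP, had -0.10 (adjusted p = 0.957 from limma).

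Promoter sequence was available for 40 of the 46 genes, in 53 windows of RefSeq (build GRCm38.p6) from 250 bases before to 50 bases after a transcript start. Each window was searched on both strands for the CArG box, in its strict form of CC and GG enclosing only A and T. Each was also searched for GGAATG, the motif of the YAP partners of the TEAD family, and for TGANTCA. The last is a loose form of the AP-1 motif that allows any middle base, such as the A in Actn4 below. A CArG box lay in the windows of 10 of 40 genes (25%), against 1.81% of 27025 genes. The set was drawn up around contractile genes of the SRF and MRTF type, so a higher share can follow from that choice alone. GGAATG lay in 37.5% of the 40 genes, against 16.6%, and TGANTCA in 12.5%, against 8.97%. The 10 genes with a CArG box were Acta1, Actc1, Actg1, Cnn2, Fhl1, Fhl2, Filip1l, Lima1, Myl9 and Srf. Of the 12 genes past the thresholds of the methods, 10 had a window, and 0 of these held a CArG box. The 9 measured genes with a CArG box had a median log2 fold change of 0.15 and gave 0 calls, while the 30 measured genes with a window but no CArG box had a median of 0.33 and 10 calls. Csrp2 and Tagln, which passed, had no window here. A motif match describes the letters of a window, and its absence says only that they are not in that window.

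Of the CArG windows, 6 are shown because their genes cover the log2 fold changes of the 9 measured genes with a box, from -0.46 for Filip1l to 0.46 for Acta1. The fold threshold of the methods itself lies above this range, so the 12 genes past the thresholds had to lie above it too. Their position therefore says nothing about the box. CArG boxes are in capitals within 20 bases of flank, on the strand of the gene. The boxes of Srf start 82 and 62 bases before the transcript start (chr17:46556195-46556264, minus strand), and the others lie in Filip1l (chr16:57549160-57549209, plus strand), Lima1 (chr15:99820167-99820216, minus strand), Cnn2 (chr10:79988524-79988573, plus strand), Actc1 (chr2:114052893-114052942, minus strand) and Acta1 (chr8:123894819-123894868, minus strand).
Srf: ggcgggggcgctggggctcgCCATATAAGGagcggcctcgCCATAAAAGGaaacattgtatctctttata
Filip1l: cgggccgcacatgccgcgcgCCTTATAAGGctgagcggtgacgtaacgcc
Lima1: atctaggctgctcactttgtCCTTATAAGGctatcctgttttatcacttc
Cnn2: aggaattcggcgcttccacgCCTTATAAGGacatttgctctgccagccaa
Actc1: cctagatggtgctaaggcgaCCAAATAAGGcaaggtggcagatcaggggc
Acta1: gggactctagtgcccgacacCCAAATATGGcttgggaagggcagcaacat

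The box of Filip1l is the same 10 letters as those of Lima1 and Cnn2, and these genes had log2 fold changes of -0.46, 0.36 and 0.03. Among the genes past the thresholds of the methods, 2 of 10 held GGAATG and 1 of 10 held TGANTCA, in Flnc (chr6:29433132-29433177, plus strand) and Actn4 (chr7:28962475-28962568, minus strand). Their matches are in capitals, with GGAATG read from the other strand as its complement, and in Actn4 the GGAATG match comes first.
Flnc: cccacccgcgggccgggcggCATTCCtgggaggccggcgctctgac
Actn4: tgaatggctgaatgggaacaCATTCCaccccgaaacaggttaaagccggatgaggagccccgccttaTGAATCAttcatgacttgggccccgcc

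Levels differed between mice as well as with the treatment. The counts of this paragraph are given without a share over all genes. For 28 of 45 genes the range of the mean level over the 3 mice exceeded the size of the log2 fold change. The range is the highest minus the lowest mouse and the fold change is a mean, so they are unlike measures. Among the 12 genes past the thresholds of the methods this held for Des alone. The fit without the block counts the spread between mice as error, so such genes could seldom pass it. The range was above 1 log2 unit for 7 genes, Ankrd1, Actg2, Acta1, Fhl1, Myh11, Des and Myh10, of which several are muscle-type genes. Ankrd1 differed most, with means of 7.68, 9.25 and 10.25 in mice 2, 4 and 5. Actg2 followed with 6.82, 8.98 and 8.80, and Acta1 with 7.80, 8.90 and 9.60. Mouse 2 had the lowest mean level in 24 of 45 genes and mouse 5 the highest in 27. The change after C5a was largest in mouse 2 for 31 of the 45 genes and for 11 of the 12 that passed.

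**Figure D3:**
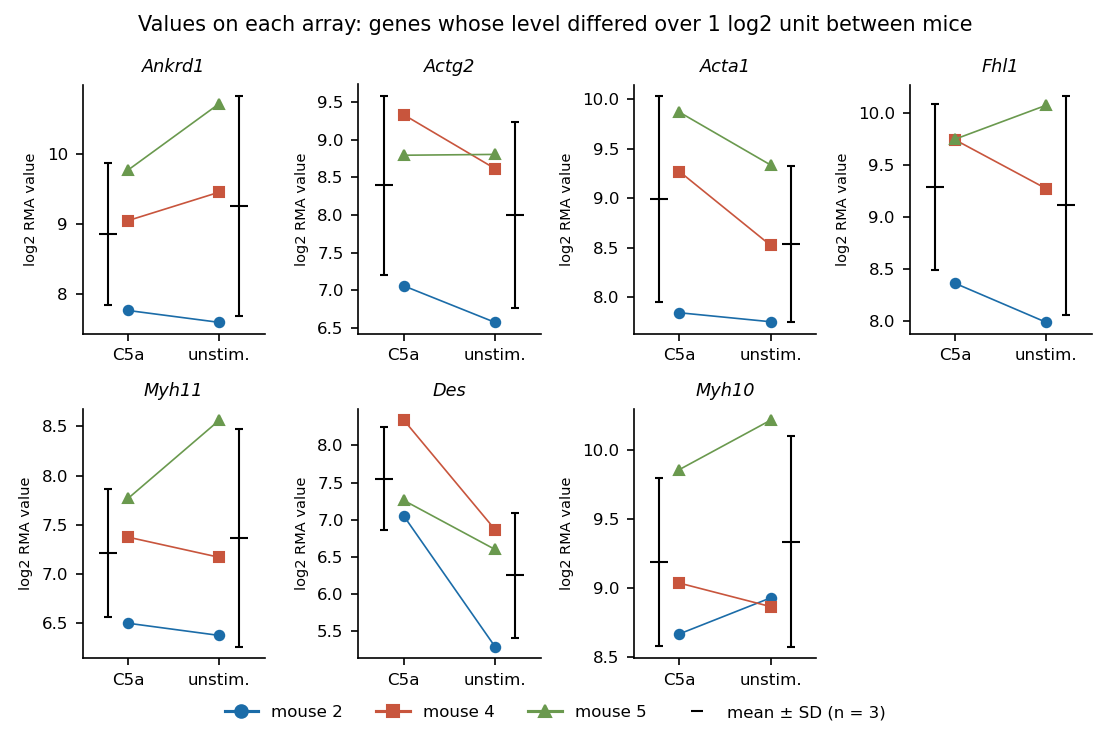
Log2 RMA values (y axis, own scale for each gene) of the 7 genes whose mean level differed by more than 1 log2 unit between mice, with C5a on the left and unstimulated on the right, lines joining the cultures of a mouse, and mean ± SD (n = 3). The lines of the 3 mice stay apart for most genes, and those of Ankrd1 lie in the order of mice 2, 4 and 5 on both sides.

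The markers of other cell types that the cultures could hold were set beside these levels. Macrophage and osteoclast markers (15 of 15 measured) averaged 9.42, 9.67 and 6.56 with C5a in mice 2, 4 and 5, against 9.70, 10.07 and 6.43 unstimulated. Their average was thus far lower in mouse 5, the mouse with the highest level of most actin genes. The osteoclast genes of the list differed less, with mean levels in mice 2, 4 and 5 of 10.73, 10.91 and 10.37 for Ctsk. Acp5 had 9.1, 8.5 and 8.1, and Dcstamp was low in each mouse, at 4.9, 4.9 and 4.7. In bulk RNA fewer cells of a type and less RNA per cell cannot be told apart. With C5a the macrophage and osteoclast markers gave 0 calls by the thresholds of the methods. The unblocked fit could hardly call such genes, with a standard error of 1.97 for Ctss. However, 13 of 15 had a log2 fold change below 0, where 10393 of all 19938 genes did. In the limma fit with the block Ptprc, Adgre1, Ctss and Mpeg1 were lower (unadjusted p = 0.00881, 0.0248, 0.0318 and 0.0388). All of these were under the fold threshold, and 11.9% of all genes were lower at a p under 0.05 in that fit. The median change of the 15 markers within mice 2, 4 and 5 was -0.33, -0.40 and 0.11, and 1, 1 and 11 of them were higher. The actin genes were mostly higher in each mouse. Smooth muscle and pericyte markers (10 of 10) averaged 7.14, 7.38 and 7.77 with C5a, against 6.72, 7.16 and 7.71 unstimulated, and 1 of them, Cspg4, was higher (log2 fold change 1.70, adjusted p = 0.283 from limma). With the mouse as a block 2 were higher, since Pdgfrb, a receptor of pericytes and other mesenchymal cells, then passed as well (0.68, unadjusted p = 0.00452, against 0.163 without the block) and was higher in all 3 mice. Skeletal and cardiac muscle markers (14 of 14), among them Myog, Ckm and Ttn, averaged 6.05 to 6.13 with C5a, against 5.999 to 6.18 unstimulated, with 0 calls. The osteoblast markers (10 of 13 measured), the endothelial markers (8 of 8) and the adipocyte markers (6 of 7 measured) gave 0 calls as well, with or without the block. Of the osteoblast genes, the matrix genes Col1a1, Col1a2 and Sparc lay at 13.32 or above on all 6 arrays. The more specific ones differed between mice or were low. Ibsp, a bone matrix sialoprotein, had 11.26, 12.62 and 7.02 with C5a, against 11.75, 12.88 and 7.56 unstimulated, and Alpl, alkaline phosphatase, was also lowest in mouse 5 (9.29 with C5a and 9.63 unstimulated). Sp7, Dmp1, Phex and Sost lay between 5.32 and 9.21. Ibsp (-0.43) and Phex (-0.42) were lower in all 3 mice, under the fold threshold (unadjusted p = 0.00486 and 0.0339 from limma with the block). The part of cell composition in the differences between mice, or in the changes after C5a, was not tested.

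In the set, 5 genes had more than 1 probeset, and in 3 of them, Myh9, Filip1l and Tpm3, the probesets disagreed in direction. The Myh9 value above comes from probeset 10430201. A dimmer Myh9 probeset, 10430245, had 6.77, 6.28 and 6.73 with C5a, against 7.30, 6.95 and 7.41 unstimulated. It was thus lower in all 3 mice, with a log2 fold change of -0.62 (adjusted p = 0.277 from limma) that passes the thresholds of the methods in the other direction. The call for Myh9 is therefore uncertain at the level of the gene. For Filip1l the value comes from probeset 10436369 (-0.46), while probeset 10436363 had 0.14 (unadjusted p = 0.125). The 4 probesets of Tpm3 lay between -0.03 and 0.17, the 3 of Mrtfb between 0.01 and 0.14, and the 2 of Pdlim1 had 0.15 and 0.21.

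**Figure D4:**
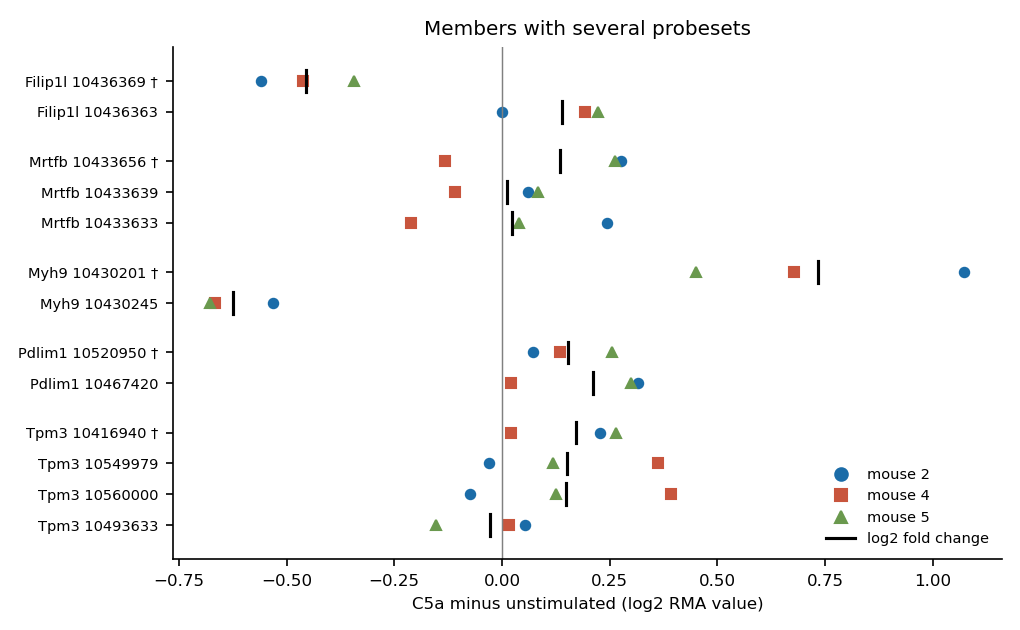
C5a minus unstimulated (log2 RMA value, x axis) for each probeset of the 5 genes with more than 1 probeset (y axis, dagger for the probeset used), with 1 symbol per mouse and a bar at the log2 fold change. The 2 probesets of Myh9 lie on opposite sides of 0 in all 3 mice, at 0.73 and -0.62.

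Other genes of the same pathways were described from lists of actin turnover, further myosins and further SRF targets. Among 37 genes of actin monomer binding, nucleation and turnover, 0 passed in either direction and the median was 0.08. The genes of smallest p were Ezr, a membrane linker, and Actr3, an Arp2/3 subunit, at 0.44 and 0.35, and Coro1b and Wasf1, at -0.21 and -0.16. Of 23 other myosins and light chains, 0 passed and the median was 0.05, with Myo9b at 0.38, Myo5a at 0.28, Myl12b at -0.40 and Myo6 at -0.29. Of 17 other SRF targets of the MRTF type, 1 was higher and 1 lower, and 3 and 1 with the mouse as a block, which added Tes, a LIM protein of focal adhesions (0.66), and Ccn2, a matricellular protein (1.21). Vcl, vinculin, which ties actin to adhesion sites, had 12.54, 12.03 and 12.38 with C5a, against 10.80, 11.11 and 11.50 unstimulated (log2 fold change 1.18, adjusted p = 0.161 from limma). Smtn, smoothelin, had 0.36, and on the other side Ablim1, an actin-binding LIM protein, had -0.64 and the matricellular Ccn1 -0.38.

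Most of the TCF factors and immediate early SRF targets were lower with C5a. Of 12 genes 8 were lower and 1 was higher at the thresholds of the methods, where 1.62% and 1.91% of all genes were. Their median was -1.93, and 2 passed the adjusted threshold, where 0.0251% of all genes did. Fos, the founding AP-1 subunit, had 7.04, 6.56 and 6.66 with C5a, against 11.75, 11.58 and 11.44 unstimulated, a log2 fold change of -4.84 (adjusted p = 0.00197 from limma). Egr2, a zinc finger factor, had -3.41 (adjusted p = 0.0354 from limma, 0.0705 with the mouse as a block). Ier2, an immediate early nuclear protein, had -3.80 (adjusted p = 0.0559 from limma, 0.0195 with the block), so that the genes past the threshold with the block were Fos and Ier2. The TCF genes Elk3 and Elk4 were on the other side, at 0.84 and 0.34. The difference between these lists and the actin genes was not tested.

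**Figure D5:**
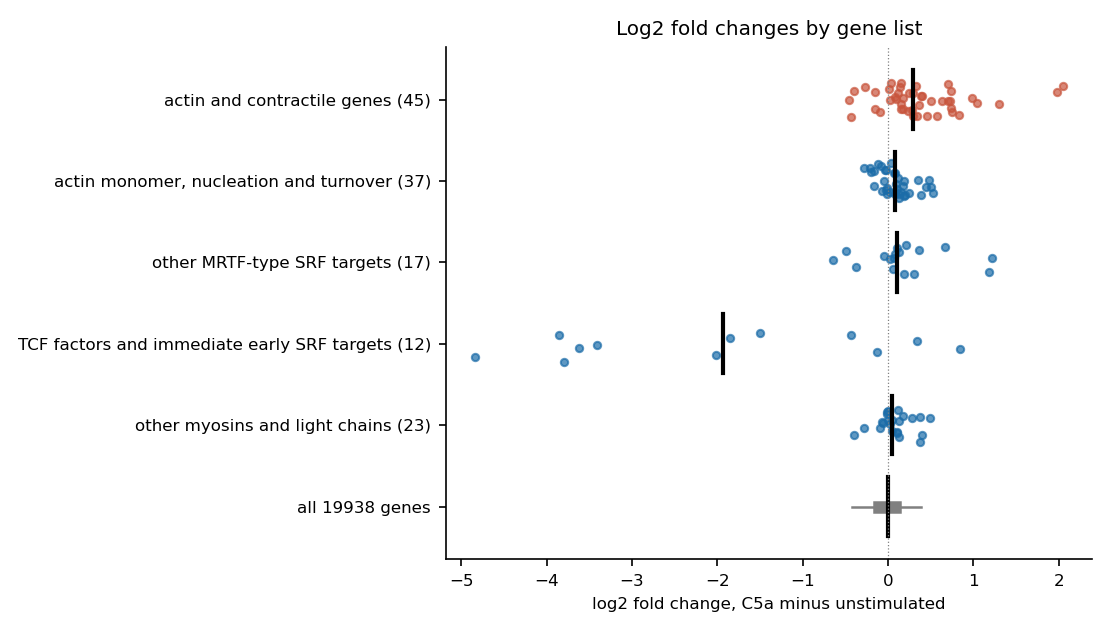
Log2 fold changes, C5a minus unstimulated (x axis), for the 45 actin and contractile genes, 4 pathway lists and all 19938 genes (y axis, number measured in brackets), with 1 point per gene and a bar at the median; for all genes the box spans the middle 50% and the line the middle 90%. The actin genes have a median of 0.29 and the TCF and immediate early genes one of -1.93, whereas the other 3 lists lie between 0.05 and 0.10.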

How the data were processed

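The submitters' notes name Affymetrix Expression Console and RMA, and the methods add BRB-ArrayTools, without versions in the sources used here. The authors normalized the arrays by RMA and deposited log2 intensity values per probeset for the 6 arrays, which were all used. Whether other arrays were normalized with them is not given in the sources used here. RMA sets the arrays to a common distribution, so a shift shared by all genes cannot be seen. The cultures of the shorter stimulation were not analysed here. Columns of per-sample values outside these samples numbered 0.

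Probesets were named through the platform annotation: 21789 name 1 gene, 1621 several and 12146 none. Of the first, 21698 matched the RefSeq gene table by Entrez ID, and 0 symbols were updated. For the 999 genes with several such probesets the highest mean was taken. The deposited values were compared with limma 3.58.1 (lmFit and eBayes, R 4.3.3) over all 35556 probesets, with Benjamini-Hochberg adjustment. No further normalization, filter or pairing was used, since the methods name a t test without stating a pairing. The methods' fold threshold was read as at least 1.5. Intervals are 95% intervals of limma, and tables were made with pandas 2.3.3 in Python 3.11.15. The script was tested on simulated arrays.

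The number in the sample titles was read as the mouse, with 1 culture of each mouse in either group, and so pairs the cultures. Deviations from the group means correlated at 0.495 to 0.684 between cultures of a mouse and at -0.446 to -0.035 between mice. Deviations within a group sum to 0, so the negative values follow in part from the centring and are no separate evidence of pairing. The blocked value is given where it changes a call of a gene or list, and for some genes under the fold threshold. Alternatives were the block, the methods' t-test with equal variances, removal of probesets below the 40th percentile, limma with trended and robust variances, restriction to probesets of 1 gene, quantile normalization, centring of each array on its median, the probeset with the largest spread, and leaving out arrays or mice.

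The genes and the 4 pathway and 6 marker lists were chosen with earlier results of these data known, so they are described by counts and medians, with no test of a list. Values on every array are given for Srf, Mrtfa and Mrtfb, the genes past the thresholds of the methods and the gene of smallest p in each role. Of each pathway list the genes past the adjusted threshold and the 2 of smallest p in each direction are named. Array values of Actb, Acta2, Mylk and Pdlim4, list genes whose call the block changes and values of osteoblast markers were added after they were seen. A further pathway list is not reported here.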

Additional observations from a re-analysis of the deposited data

How the results depend on the processing

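Each of the 45 genes was recomputed under 20 alternatives. The count past the adjusted threshold was 0 under all of them. The count of 12 genes higher at the thresholds of the methods was 12 with the variance trend, the filter, probesets naming 1 gene, either renormalization and the probeset of largest spread, 13 with the mouse as a block and 7 with the methods' t-test. It was 5 to 12 without 1 array or mouse. With the mouse as a block it was 7 without mouse 2, 13 without mouse 4 and 15 without mouse 5. The count of lower genes was 0 to 1 without 1 array or mouse, the 1 being Mylk, and 1 (Ankrd1) with the block and without mouse 2. The median log2 fold change lay between 0.19 and 0.39. Of the 12 genes 0 changed direction, and Csrp1, Csrp2, Flnc, Mical2 and Pdlim5 passed under all 20 alternatives. Across the 45 genes 14 changed direction, all when an array or mouse was left out, and the cause was not tested. Without 1 array or mouse Srf lay between -0.25 and 0.44, Lmod1 between -0.13 and 0.20, Myl9 between -0.0995 and 0.24, Fhl2 between -0.11 and 0.38, Myh11 between -0.65 and 0.44, Amotl2 between -0.28 and 0.066, Cnn2 between -0.025 and 0.10, Myh10 between -0.49 and 0.29, Ankrd1 between -1.23 and 0.34, Actg2 between -0.32 and 1.06, Fhl1 between -0.39 and 0.66, Mrtfb between -0.077 and 0.28, Pdlim1 between -0.13 and 0.40 and Synpo between -0.57 and 0.0001012. With the block and without mouse 2, Srf had -0.10, Lmod1 -0.10, Myl9 -0.0995 and Fhl2 -0.11, and without mouse 5, Srf had -0.25, Myh11 0.16 and Amotl2 0.063. A fold change without 1 array also carries that mouse's own level. Without the block, changes under 1.5-fold in genes whose level differs between the 3 mice are hard to resolve. The block takes up that difference, as in Acta1, whose standard error was 0.14 with the block and 0.62 without it.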
